A study of Homo sapiens with 6 samples.

Results

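The genes described here encode the proteins of the cytosolic ribosome, the particle that translates nuclear-encoded mRNAs. They were chosen by symbol: every gene named RPL or RPS with a number, together with RPLP0, RPLP1, RPLP2 and RPSA, without the S6 kinases, the RPS4Y genes and pseudogenes. RefSeq lists 85 protein-coding genes with such a symbol, and 60 of them had at least 1 probe set that names no other gene, out of 19775 genes measured in that way. These 60 genes comprise 30 of the large subunit, 20 of the small subunit, the stalk genes RPLP1 and RPLP2, and 8 paralogs, which are second copies of a ribosomal protein gene with a sequence of their own. Of the other 25 symbols, 15 lie on probe sets shared with other genes, and 10 were not analysed here.

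The study compared 3 arrays of T47D cells given GDC-0941 for 6 h with 3 arrays of control T47D cells, for which the labels give no agent and no solvent. T47D is an established luminal, oestrogen receptor-positive breast cancer line, and GDC-0941 (pictilisib) inhibits the class I PI3 kinases. The labels give its concentration as 1 mM, and whether a micro sign was lost could not be settled from them. All cells were grown in DMEM with fetal bovine serum, and the labels do not say that replicates were separate cultures, so each p-value measures the spread between these 6 arrays, which may be technical.

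Ribosomal proteins are made in near-equal amounts, assembled on rRNA in the nucleolus and exported as part of the subunits. Most of their mRNAs begin with a C followed by an unbroken run of pyrimidines, the 5′ terminal oligopyrimidine (TOP) motif. Through this motif the kinase complex mTORC1, which acts downstream of PI3 kinase and AKT, controls their translation, with LARP1 as the protein that binds the motif when mTORC1 is off. This control is known mainly at the level of translation, and arrays such as these measure the amount of mRNA and not its use by ribosomes.

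The start of the transcript is shown for genes whose values are described below, because it is the stretch that sets TOP mRNAs apart. Each line gives 10 bases before and 20 bases from the annotated start on the transcript strand, from RefSeq on GRCh38.p14. Capitals mark the unbroken pyrimidine run that begins with C at the start site, or the first transcribed base alone where there is no such run.
RPL39, chrX:119791611-119791640, minus strand: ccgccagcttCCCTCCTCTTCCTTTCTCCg
RPL22, chr1:6199576-6199605, minus strand: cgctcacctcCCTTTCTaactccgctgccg
RPL22L1, chr3:170870176-170870205, minus strand: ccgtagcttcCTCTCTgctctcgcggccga
RPL26L1, chr5:172958719-172958748, plus strand: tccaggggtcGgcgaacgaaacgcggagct
RPL36, chr19:5690285-5690314, plus strand: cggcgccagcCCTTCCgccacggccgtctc
RPS27, chr1:153990752-153990781, plus strand: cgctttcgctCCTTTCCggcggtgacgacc
RPS27L, chr15:63157458-63157487, minus strand: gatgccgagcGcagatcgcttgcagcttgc
RPS6, chr9:19380217-19380246, minus strand: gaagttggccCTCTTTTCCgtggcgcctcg

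The run is 19 bases long in RPL39, 9 in RPS6, 7 in RPL22 and RPS27, and 6 in RPL36 and RPL22L1. RPL26L1 and RPS27L have none at the starts shown. A run of at least 5 bases (the letter C, then at least 4 letters that are each C or T) was found at the annotated start of 35 of the 52 measured ribosomal protein genes with a RefSeq promoter entry, or 67.3%. It was found at 6.07% of the 15384 tested genes with an entry and at 4.07% of all 35116 promoters. Among the main genes 34 of 46 held it, and among the paralogs 1 of 6, RPL22L1. RPL39L has no entry.

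Across the 60 genes, most mRNA levels differed little between the groups, while a subset made up mainly of paralogs was lower in GDC-0941 cells. By limma's moderated test with Benjamini-Hochberg adjustment over all 19775 genes, 5 of the 60 genes (8.33%) fell at an adjusted p under 0.05 and 0 rose. Among all genes 27.8% were called, 15.6% lower and 12.1% higher. At an unadjusted p under 0.05, 6 of the 60 genes were lower and 1 was higher. The log2 difference of GDC-0941 minus control had a median of 0.014 over the 60 genes and of -0.017 over all genes, with a range over the 60 genes of -0.74 to 0.14. In 49 of the 60 (81.7%) it lay within 0.1 of 0, against 50.1% of all genes. The 2 sets of genes are not alike in signal, with a median of 13.97 over the 60 and of 8.20 over all genes. Within 0.1 of 0 lay 45 of the 47 ribosomal protein genes with a mean signal above 13 (95.7%). Of the 13 at or below that level it was 4 (30.8%).

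**Figure D1:**
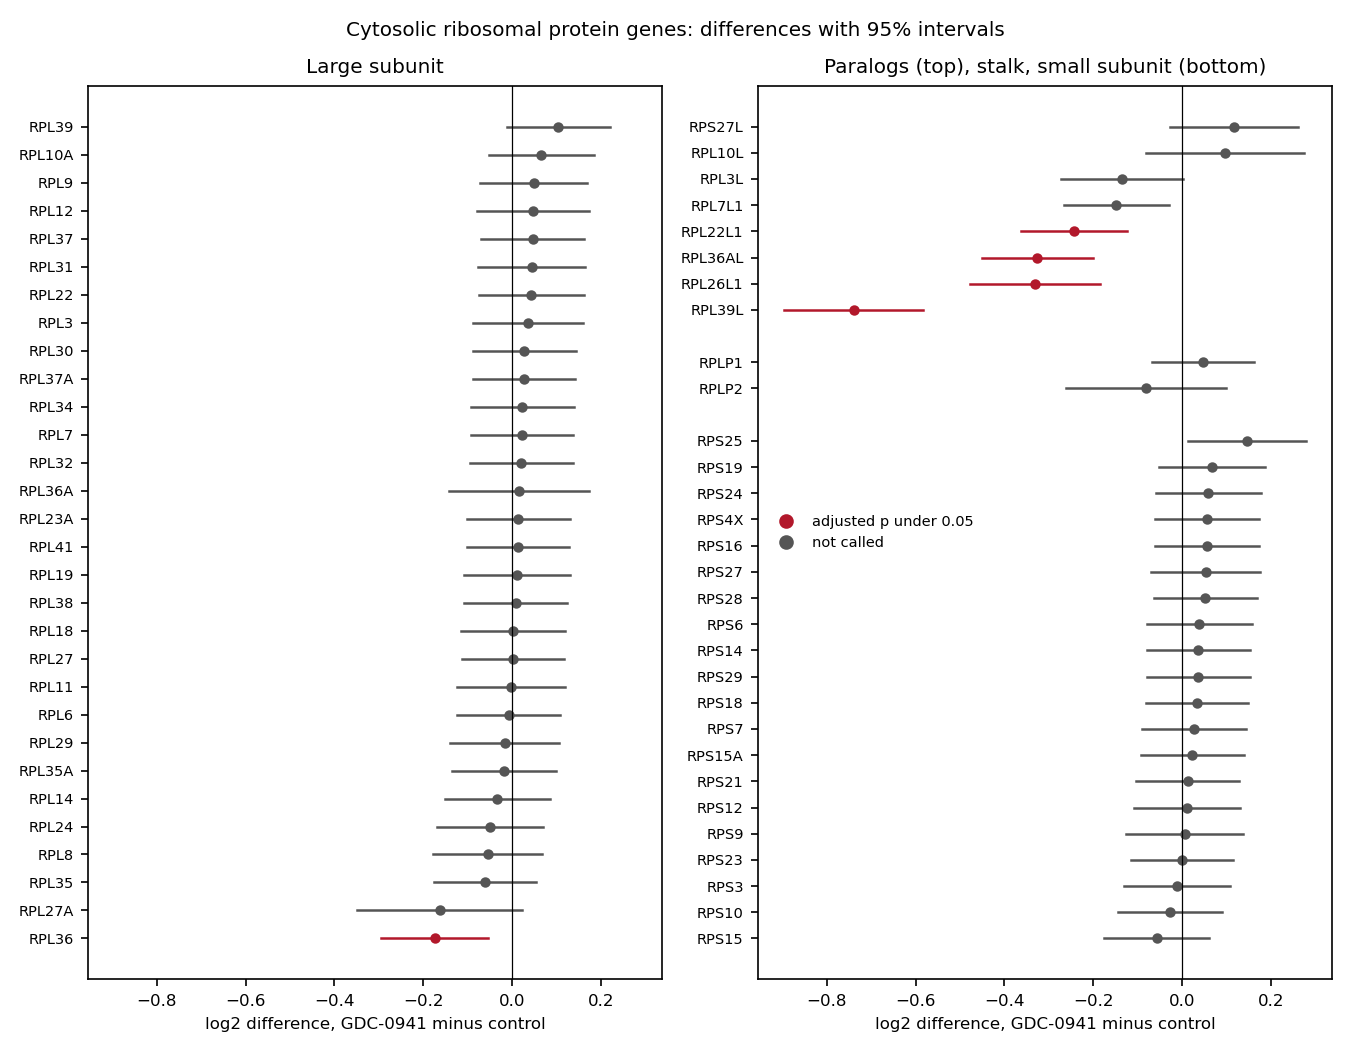
Log2 difference (GDC-0941 minus control) of each of the 60 ribosomal protein genes with its 95% confidence interval, genes down the page by class, n = 3 arrays per group. The 5 genes in red (RPL39L, RPL26L1, RPL36AL, RPL22L1 and RPL36) lie left of 0, and most others lie within 0.1 of it.

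Of the 5 genes that fell, 4 were paralogs. RPL39L, the second copy of RPL39, which lines the tunnel through which the new protein leaves the ribosome, is best known from mouse testis. RPL39L (probe set 210115_at) had log2 signals of 9.69, 9.46 and 9.53 in GDC-0941 cells, against 10.22, 10.29 and 10.38 in control cells. All 3 GDC-0941 arrays lay below all 3 control arrays, and the group means were 9.56 ± 0.12 in GDC-0941 cells and 10.30 ± 0.08 in control cells (SD, n = 3 each). The difference was -0.74 ± 0.07 (SE), or 1.67-fold lower, with a limma adjusted p of 1.9e-05.

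RPL26L1 encodes a protein nearly identical to RPL26, of the large subunit. Its probe set 218830_at read 11.33, 11.13 and 11.23 in GDC-0941 cells, against 11.55, 11.50 and 11.64 in control cells. The groups did not overlap, and the difference was -0.33 ± 0.07 (SE), 1.26-fold lower, with a limma adjusted p of 0.00287. RPL36AL is the intronless copy of RPL36A, a large subunit protein near the exit site for tRNA. Its probe set 207585_s_at read 12.76, 12.69 and 12.81 in GDC-0941 cells, against 13.11, 13.06 and 13.06 in control cells. Again no GDC-0941 array reached the lowest control array, and the difference was -0.33 ± 0.06 (SE), 1.25-fold lower, with a limma adjusted p of 0.00109.

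RPL22L1 is the copy of RPL22, an RNA-binding protein of the large subunit that, in mouse, lowers the expression of this copy. Its probe set 225541_at read 11.23, 11.16 and 11.22 in GDC-0941 cells, against 11.44, 11.45 and 11.46 in control cells. The control arrays lay within 0.02 of each other on the log2 scale and above every GDC-0941 array. The difference was -0.24 ± 0.05 (SE), 1.18-fold lower, with a limma adjusted p of 0.00501.

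RPL36 was the main subunit gene that fell. Its protein belongs to the large subunit. Probe set 219762_s_at read 12.35, 12.30 and 12.38 in GDC-0941 cells, against 12.54, 12.52 and 12.50 in control cells. The groups did not overlap, but the difference was small, -0.18 ± 0.05 (SE), 1.13-fold lower, with a limma adjusted p of 0.032. The call was lost when any array other than GDC-0941 replicate 1 was left out (adjusted p between 0.0559 and 0.112).

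All 5 calls held after centring on the array median and after quantile normalization again, but RPL39L alone kept its call under another scaling. Centring each array on its hybridisation control sets moved the median of all genes to 0.152, with 5688 genes higher and 895 lower, against 2398 higher and 3090 lower without it. RPL39L still fell, by 0.57, but RPL26L1, RPL36AL, RPL22L1 and RPL36 lost their calls, at -0.16, -0.16, -0.07 and -0.01 (adjusted p between 0.175 and 0.968). The SE of each gene that lost its call was 0.097 under that scaling, against 0.05 to 0.07 without it. Under that scaling 6 ribosomal protein genes rose (RPL10A, RPL10L, RPL39, RPS19, RPS25 and RPS27L) and 1 fell. This centring shifts every gene alike, so the median of the 60 genes stayed 0.03 above that of all genes by construction.

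**Figure D2:**
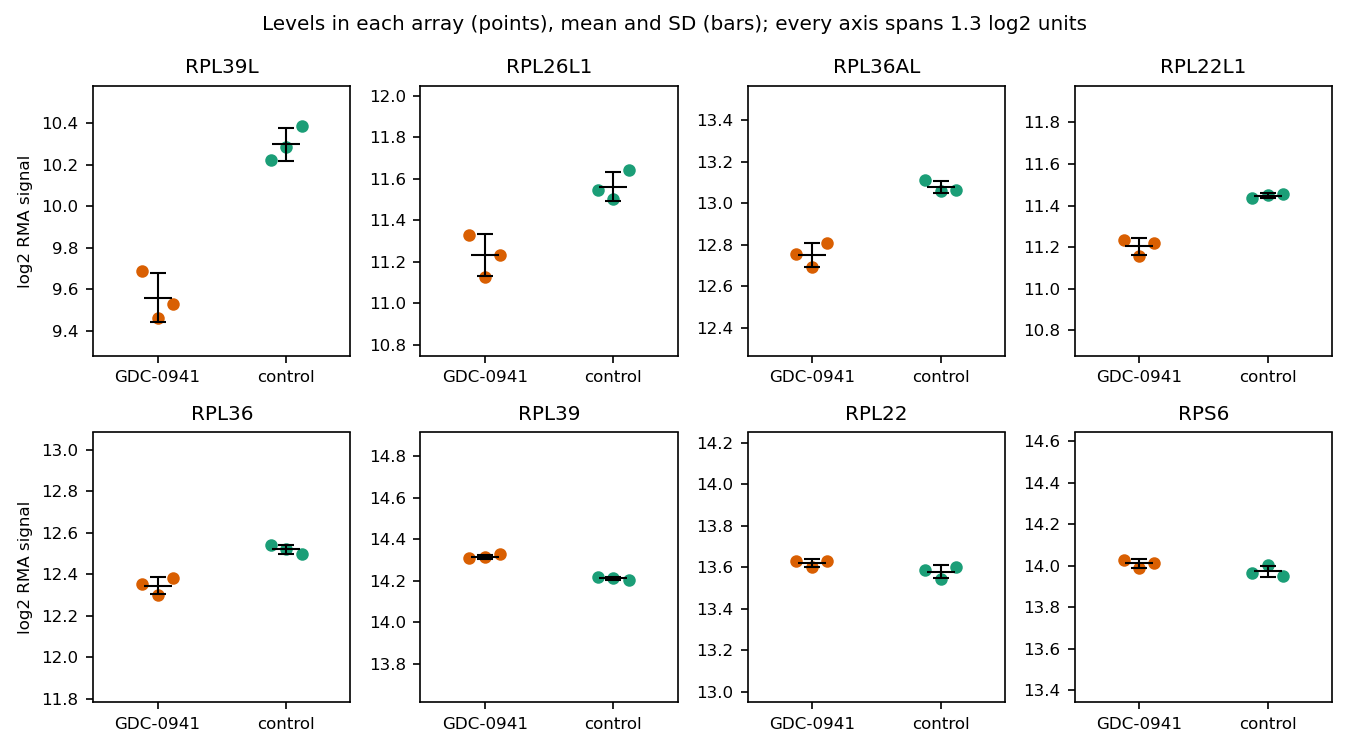
Log2 RMA signal in each array for 8 of the named genes (points, with the mean and SD as bars), GDC-0941 arrays at the left of each panel and control arrays at the right, every panel spanning the same height and n = 3 arrays per group. RPL39L, RPL26L1, RPL36AL and RPL22L1 lie lower in every GDC-0941 array, while the groups of RPL22 and RPS6 overlap.

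The other 4 paralogs did not pass the test. RPL7L1, whose protein acts in rRNA processing in the nucleolus, had 11.78, 11.72 and 11.76 in GDC-0941 cells, against 11.91, 11.89 and 11.91 in control cells. The groups were apart, with a difference of -0.15 and a limma adjusted p of 0.0603, and it passed the threshold in 5 of the alternatives (adjusted p 0.00515 to 0.046). The lowest of these came with array weights, under which 4235 of all genes were called higher and 5176 lower. A set that RPL7L1 shares with WAC-AS1 went the other way, at 0.05 with overlapping groups. RPL3L, the copy of RPL3 used in heart and skeletal muscle, had 6.45, 6.36 and 6.51 in GDC-0941 cells, against 6.63, 6.50 and 6.59 in control cells. Its groups overlapped in part (difference -0.14, limma adjusted p 0.143).

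RPL10L, the testis copy of RPL10 that is needed for meiosis in male mice, had 7.94, 7.90 and 7.97 in GDC-0941 cells, against 7.99, 7.88 and 7.64 in control cells. RPS27L, a copy of RPS27 that p53 induces, had 12.18, 12.02 and 12.08 in GDC-0941 cells, against 12.08, 11.94 and 11.91 in control cells. Neither separated the groups on these sets: the differences were 0.10 for RPL10L and 0.12 for RPS27L, with limma adjusted p-values of 0.45 and 0.236. Another set of RPS27L, with a mean of 8.16, had its groups apart, at 0.21 (limma adjusted p 0.0691 over all probe sets). Under an alternative rule that took this set for RPS27L, the gene was called higher (limma adjusted p 0.0483). A further set, with a mean of 8.09, overlapped at 0.10. Over the 8 paralogs the median difference was -0.20, 4 (50%) fell and 0 rose, beside 15.6% of all genes lower and 12.1% higher. The 8 include RPL3L and RPL10L, whose sets are dim, with means of 6.51 and 7.89.

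Because a called paralog beside an uncalled main gene does not show that they differ, the log2 ratio of the pair within each array was compared between groups for the 6 pairs with both genes measured. An exact two-sided permutation test over 3 against 3 arrays cannot give a p below 0.1, so no pair could pass 0.05. RPL39L minus RPL39 lay between -4.85 and -4.62 in GDC-0941 cells and between -3.99 and -3.82 in control cells. RPL22L1 minus RPL22 lay between -2.44 and -2.40 in GDC-0941 cells and between -2.15 and -2.09 in control cells. These are ratios of different probes, so only their change between groups has a meaning.

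The probe sets of RPL36A, with a mean of 5.74, and of RPL3L, with 6.51, are dim, and the values used here carry no detection call, so the ratios of those pairs are not read here. In 3 of the other 4 pairs the change was -0.84 for RPL39L and RPL39, -0.29 for RPL22L1 and RPL22, and -0.17 for RPL7L1 and RPL7, with every GDC-0941 array below every control array. Each of these had the smallest exact p possible, 0.1 (0.12 adjusted over the 6 pairs). The main genes RPL39, RPL22 and RPL7 had mean signals of 14.26, 13.60 and 14.48, near the top of the scale. Whether signals that high compress a change, and so leave the ratio to follow the paralog, was not tested. RPS27L and RPS27 gave 0.06 with overlapping groups, an exact p of 0.6 and, without GDC-0941 replicate 1, -0.0052.

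Most main counterparts differed by little on their brightest set. RPL39 had 14.31, 14.31 and 14.33 in GDC-0941 cells, against 14.22, 14.21 and 14.20 in control cells. This was a separation upwards, opposite to its copy, with a difference of 0.10 and a limma adjusted p of 0.18. It passed the threshold with array weights (adjusted p 0.0156), with a trended, robust prior (0.00427) and after quantile normalization was applied again (0.0377). Array weights raised the calls among all genes as well, to 4235 higher and 5176 lower, against 2398 and 3090 without weights. RPL22 had 13.63, 13.60 and 13.63 in GDC-0941 cells, against 13.59, 13.54 and 13.60 in control cells. Other sets of RPL22, with means of 11.97 and 12.52, had GDC-0941 above control with groups apart, at 0.19 and 0.17. A set at 13.40 was apart at 0.05, and a set at 13.58 overlapped at 0.05. No set of RPL22 was called by limma.

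RPL7 had 14.50, 14.49 and 14.49 in GDC-0941 cells, against 14.47 in each of the 3 control arrays. RPL3, near the catalytic centre, had 13.53, 13.42 and 13.53 in GDC-0941 cells, against 13.48, 13.44 and 13.46 in control cells. RPS27 had 14.32, 14.40 and 14.41 in GDC-0941 cells, against 14.36, 14.29 and 14.32 in control cells. Of these RPL7 kept its groups apart, by 0.02, but a dim set of RPL7 with a mean of 6.50 went the other way, at -0.48 (limma adjusted p 0.00408 over all probe sets). RPL36A was read by its own probe set at 5.86, 5.72 and 5.66 in GDC-0941 cells and 5.78, 5.80 and 5.62 in control cells. A brighter set that it shares with its readthrough transcript to HNRNPH2 averaged 13.58 ± 0.03 in GDC-0941 cells and 13.61 ± 0.05 in control cells (SD, n = 3 each), so neither set moved past its spread.

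Among the 30 main large subunit genes, 1 fell (RPL36), 0 rose, and the median difference was 0.013. Apart from RPL36, RPL39 and the counterparts above, the lowest and highest were as follows. RPL27A had 8.19, 7.88 and 8.11 in GDC-0941 cells, against 8.12, 8.21 and 8.35 in control cells (difference -0.16, limma adjusted p 0.193). That probe set is dim, and a bright one that RPL27A shares with a snoRNA gene averaged 14.10 ± 0.04 in GDC-0941 cells and 14.04 ± 0.02 in control cells (SD, n = 3 each), so the sets point in opposite directions without a call.

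RPL35, at the mouth of the exit tunnel, had 13.927, 13.912 and 13.925 in GDC-0941 cells, against 13.983, 13.966 and 14.000 in control cells. RPL8, near the catalytic centre, had 13.93, 13.82 and 13.85 in GDC-0941 cells, against 13.91, 13.92 and 13.94 in control cells. RPL35 separated the groups by a narrow margin and RPL8 did not, and both differences were -0.06. At the upper end RPL10A, a protein of the mobile L1 stalk, had 14.27, 14.20 and 14.23 in GDC-0941 cells, against 14.18, 14.14 and 14.18 in control cells. RPL9 had 13.87, 13.80 and 13.81 in GDC-0941 cells, against 13.80, 13.80 and 13.74 in control cells. Neither passed the test, at 0.07 for RPL10A and 0.05 for RPL9.

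RPL12, at the base of the P stalk, had 13.94, 13.84 and 13.89 in GDC-0941 cells, against 13.82, 13.81 and 13.90 in control cells. RPL11, which with RPL5 and 5S rRNA binds the p53 ligase MDM2, had 13.63, 13.55 and 13.58 in GDC-0941 cells, against 13.56, 13.59 and 13.62 in control cells. RPL11 differed by less than 0.01, with a 95% confidence interval of -0.12 to 0.12. RPL5 was read by a probe set shared with a snoRNA gene, which averaged 13.61 ± 0.04 in GDC-0941 cells and 13.56 ± 0.04 in control cells (SD, n = 3 each), with overlapping groups.

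The stalk proteins RPLP1 and RPLP2 recruit and activate the elongation factors. RPLP1 had 14.26, 14.24 and 14.25 in GDC-0941 cells, against 14.21, 14.20 and 14.21 in control cells, a difference of 0.05. RPLP2 had 7.20, 6.84 and 6.97 in GDC-0941 cells on its dim probe set, against 7.03, 7.13 and 7.10 in control cells. On a bright set shared with a snoRNA gene RPLP2 averaged 13.34 ± 0.04 in GDC-0941 cells and 13.35 ± 0.02 in control cells (SD, n = 3 each). None of these passed the test.

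Among the 20 main small subunit genes, 0 rose and 0 fell by limma at an adjusted p under 0.05, 1 was higher at an unadjusted p under 0.05, and the median difference was 0.034. RPS6, the substrate of S6 kinase and the usual readout of this pathway at the protein level, had 14.03, 13.99 and 14.01 in GDC-0941 cells, against 13.97, 14.00 and 13.95 in control cells. Its mRNA overlapped between groups, with a difference of 0.04 and a 95% confidence interval of -0.08 to 0.16.

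RPS25, which some viral internal entry sites need, had 13.60, 13.62 and 13.60 in GDC-0941 cells, against 13.54, 13.49 and 13.36 in control cells. It was the small subunit gene with an unadjusted p under 0.05, at a difference of 0.14 and a limma adjusted p of 0.104. RPS19, the gene most often mutated in Diamond-Blackfan anaemia, had 14.16, 14.12 and 14.13 in GDC-0941 cells, against 14.05, 14.04 and 14.11 in control cells. RPS24 had 14.51, 14.54 and 14.54 in GDC-0941 cells, against 14.50, 14.48 and 14.44 in control cells. On these sets RPS25, RPS19 and RPS24 had every GDC-0941 array above every control array. Another set of RPS24, with a mean of 9.44, went the other way with groups apart, at -0.17 (limma adjusted p 0.0918 over all probe sets). Other sets of RPS19, with means of 13.87 and 7.30, overlapped at 0.07 and -0.06.

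The lowest small subunit genes were close to 0. RPS15 had 14.03, 13.99 and 14.01 in GDC-0941 cells, against 14.06, 14.04 and 14.10 in control cells. RPS10 had 14.39, 14.38 and 14.41 in GDC-0941 cells, against 14.41, 14.41 and 14.46 in control cells. RPS3, which helps to form the channel through which mRNA enters, had 14.29, 14.23 and 14.23 in GDC-0941 cells, against 14.24, 14.27 and 14.29 in control cells. Of these, RPS15 had its groups apart, at -0.06.

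Counting arrays alone, groups did not overlap in 24 of the 60 genes (40.0%), against 41.5% of all genes. GDC-0941 lay above control in 16 of them and below in 8, where all genes gave 17.5% above and 24% below. In the main small subunit genes it lay above in 10 and below in 1, in the main large subunit genes above in 5 and below in 2, and in the paralogs above in 0 and below in 5. With 52 main genes, 37 differences were positive and 15 negative.

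The mean signal exceeded 13 in 47 of the 60 genes, with a median of 14.17 over those 47. The highest value in the table was 14.81, read at a GDC-0941 array. For these 47 genes the median SD within groups was 0.021 and the median SE of the difference 0.053, an SE that includes the prior limma shares across all genes, and the 95% confidence interval lay within 0.2 of 0 in 45. Of them 0 were called by limma, and 1 was higher and 0 were lower at an unadjusted p under 0.05. With a trended, robust prior the SE of RPL39 was 0.026 in place of 0.053, and RPL39 and RPS25 were called higher, as they were with array weights. Of the other 167 genes above 13, 55 (32.9%) were called, against 25.7% of all 214 genes above that level. Those 167 genes are not alike in signal, with a median of 13.39 against 14.17 for the 47, and how far signals near the top of the scale compress a difference was not tested. All 5 calls came from the 13 ribosomal protein genes at 13 or below. The band above 13 was chosen after the data were seen.

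**Figure D3:**
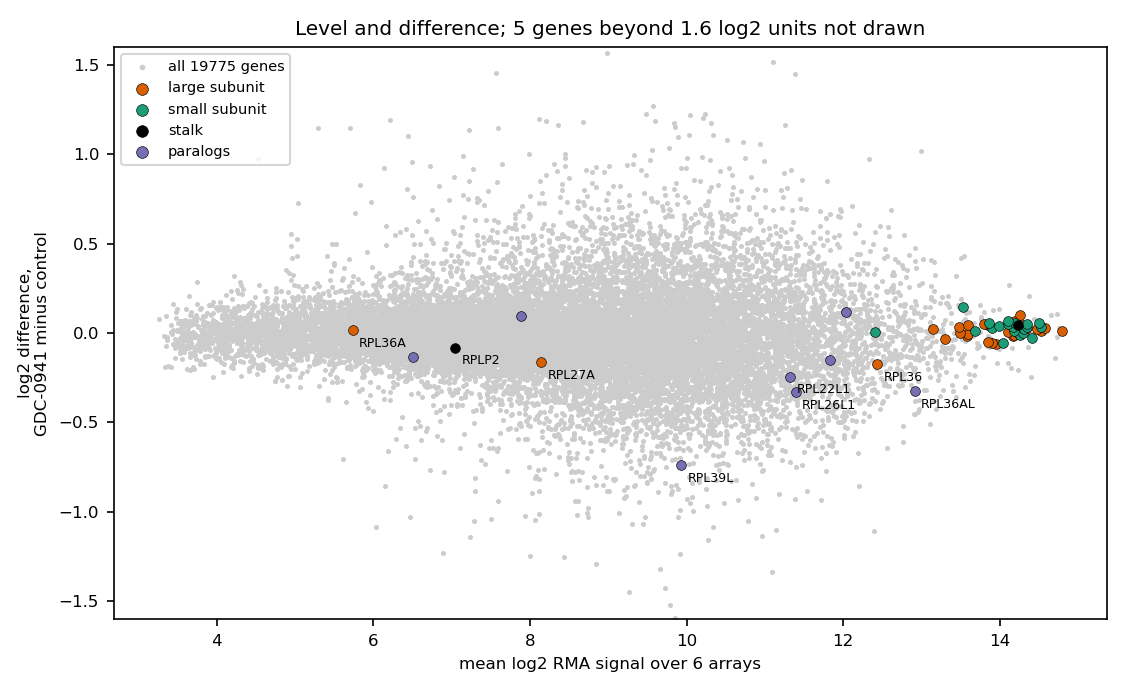
Log2 difference (GDC-0941 minus control) against the mean log2 RMA signal over 6 arrays, for every gene and, coloured by class, for the 60 ribosomal protein genes. The main genes gather at the right edge near a difference of 0, and the paralogs lie at lower signals and mostly below 0.

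A gene can be read by several probe sets, and these were compared in a fit over all 54613 probe sets, of which 18.8% were called (9.89% lower and 8.88% higher). Of the 121 probe sets that name only a ribosomal protein gene, 10 fell and 1 rose. Of the 60 chosen sets 4 fell, since RPL36 did not pass in this fit. In the 61 that were not the brightest of their gene, 6 fell (2 of RPS14 and 1 each of RPL18, RPL37A, RPL7 and RPS21), by between 0.20 and 0.48 on the log2 scale. The 1 that rose was of RPL31, by 0.29. These 7 probe sets had mean signals of 6.50 to 10.3. Of the 18 that were not the brightest but had a mean above 13, limma called 0, and 0 had an unadjusted p under 0.05.

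Another 65 probe sets name a ribosomal protein gene together with other genes, 46 of them with snoRNA genes hosted in its introns alone. In the same fit 5 of these fell: 2 of RPL10 (1 of them shared with NDUFS5) and 1 each of RPL17, RPL23 and RPS26, and 0 rose. For the 15 genes known here only through such sets, the brightest set was taken. In 14 of these 15 the difference lay between -0.03 and 0.07 with 0 calls by limma and 0 at an unadjusted p under 0.05.

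The exception was RPS26, a small subunit protein at the exit of the mRNA channel. Its set, shared with RPS26P11 and LOC100996747, read 13.044, 12.996 and 13.052 in GDC-0941 cells, against 13.512, 13.568 and 13.562 in control cells. The groups did not overlap. The difference was -0.52 ± 0.06 (SE), 1.43-fold lower, with a limma adjusted p of 0.00012 over all probe sets. RPS26 was singled out after its values were seen, and how the signal divides among the 3 names cannot be told from 1 probe set. The gene of its dedicated chaperone, TSR2, differed by -0.05 and did not pass the test.

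**Figure D4:**
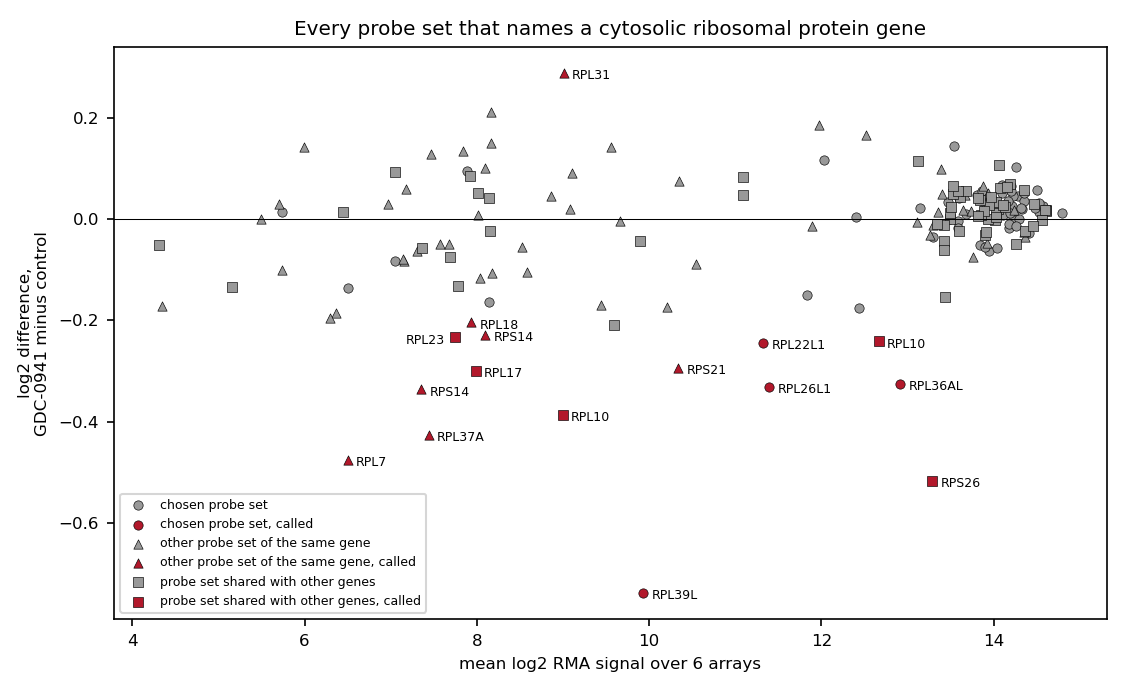
Log2 difference (GDC-0941 minus control) against mean log2 RMA signal for every probe set that names a ribosomal protein gene, marked as chosen for its gene, not chosen, or shared with other genes. Above a signal of 13 the sets lie within 0.2 of 0 except that of RPS26 at -0.52, and the differences widen at lower signals.

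Genes were called both with and without the TOP run, and they were too few for a comparison. Of the 35 ribosomal protein genes with a run at the start, 2 were called (RPL22L1 and RPL36) and the median difference was 0.012. Of the 17 without a run of at least 5 bases, 2 were called (RPL26L1 and RPL36AL) and the median difference was 0.026. RPL36AL is counted there because its run from the annotated start is 3 bases long. The 10 bases before that start are all pyrimidines too. The match is a description of RefSeq's annotated starts and does not show where these cells begin transcription.

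Other lists of the same machinery are given by their counts, beside 12.1% of all genes higher and 15.6% lower. No test compared the lists. Of the 16 measured of 21 other TOP mRNAs, 3 (18.8%) rose, 0 fell, and the median difference was 0.07. Those that rose were HNRNPA1, a splicing factor, by 0.65, EIF4B, an initiation factor and S6 kinase substrate, by 0.42, and NAP1L1, a histone chaperone, by 0.17. The probe sets of HNRNPA1 and NAP1L1 disagree. As an alternative, sets whose names do not end in _x_at, _s_at or _a_at (unmarked sets) were taken first. The difference was then -0.10 for HNRNPA1 and -0.28 for NAP1L1 (limma adjusted p 0.0323). The NAP1L1 call was also lost when any array other than GDC-0941 replicate 2 was left out (adjusted p between 0.0542 and 0.146), with centring on the array median (0.0586) and with the mean of all probe sets (0.13), where HNRNPA1 lost its call too.

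Of 17 regulators of TOP translation and S6 phosphorylation, 6 (35.3%) fell and 1 rose, with a median of -0.11. AKT1 differed by -0.58, RPS6KB2, an S6 kinase, by -0.56, and EIF4EBP1, the translation repressor that mTORC1 inactivates, by -0.43. Of 13 chaperones and importers of ribosomal proteins 5 (38.5%) fell and 0 rose, with a median of -0.15, or -0.09 without GDC-0941 replicate 2. HEATR3, which carries RPL5 into assembly, differed by -0.80, PDCD2L, by similarity to PDCD2 an escort of small subunit proteins, by -0.60, and LTV1, an assembly factor of the small subunit, by -0.51. All 6 of these named genes passed the test, but LTV1 was at -0.10 and not called (adjusted p 0.224) with the mean of all probe sets. With centring on the hybridisation controls both medians were above 0, at 0.062 for the regulators, of which 3 were lower, and 0.015 for the chaperones.

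Factors that build ribosomes, and the ribosomal proteins of mitochondria, which are encoded by a separate set of nuclear genes, had most of their members lower. Of 32 measured of 38 ribosome biogenesis factors 26 fell and 0 rose, with a median of -0.32 and with NOP16 at -1.05, LYAR at -0.92 and MRTO4 at -0.77. Of 75 mitochondrial ribosomal proteins 58 fell and 1 rose, with a median of -0.31 and with MRPL12 at -0.93, MRPL17 at -0.92 and MRPS12 at -0.82. Taking unmarked sets first left MRPL12 uncalled, at -0.09 (limma adjusted p 0.508). With centring on the hybridisation controls 14 biogenesis factors and 26 mitochondrial ribosomal proteins were lower. The lists share NPM1 (TOP mRNAs and biogenesis) and IPO7 (TOP mRNAs and importers).

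**Figure D5:**
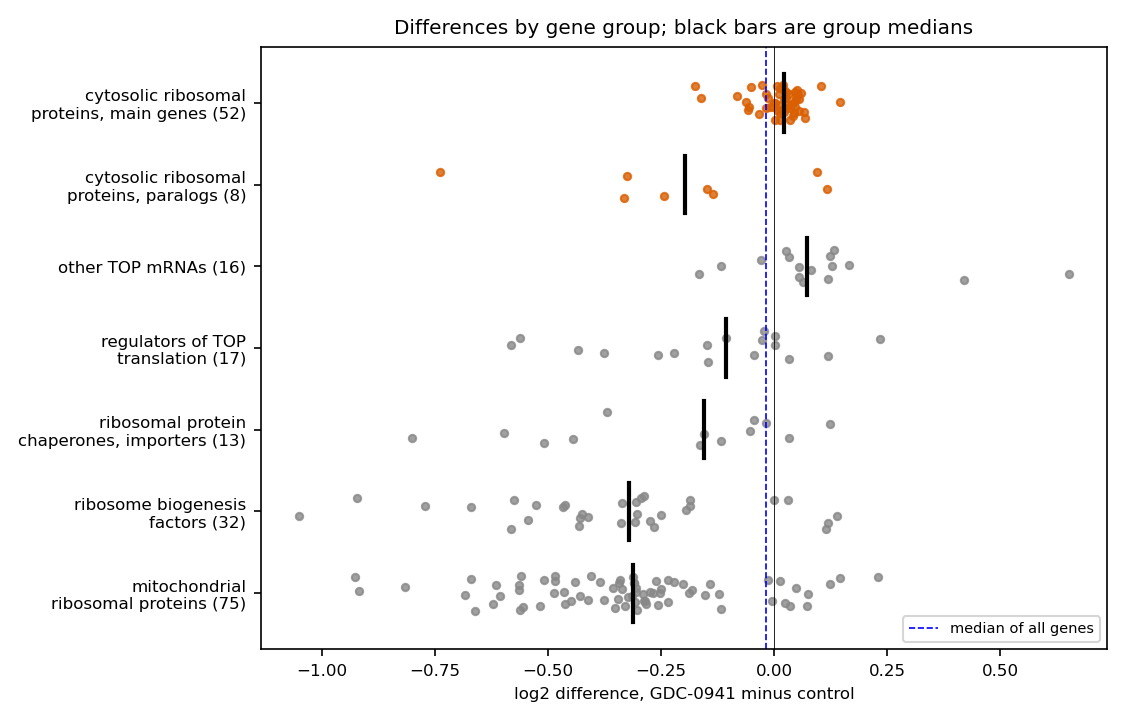
Log2 differences (GDC-0941 minus control) of single genes in each group, 1 point per gene, with the number of genes measured in parentheses and a black bar at the group median. Main cytosolic ribosomal protein genes centre near 0.02, paralogs at -0.20, ribosome biogenesis factors at -0.32 and mitochondrial ribosomal proteins at -0.31.

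Facts of the arrays that touch these values were few. The median of all probe sets was 7.34 to 7.38 on every array. The 5′ minus 3′ signal of the ACTB control sets lay between -0.41 and -0.39 on GDC-0941 arrays and between -0.30 and -0.21 on control arrays, while that of GAPDH overlapped between groups. The hybridisation control sets averaged 10.65 to 10.86 on GDC-0941 arrays and 10.90 to 10.94 on control arrays. The part of either in the results was not tested, and in RNA from whole cultures fewer cells of a kind and less RNA per cell cannot be told apart. Of the marker lists, the 10 luminal genes averaged 10.1 to 14.3, the basal genes KRT5 and KRT14 6.17 to 8.04, 3 leukocyte genes 6.12 to 8.81, 2 endothelial genes 8.18 to 9.43 and 3 fibroblast genes 7.20 to 10.7. Markers moved with the treatment: FOXA1 (0.53), PGR (0.42) and XBP1 (0.32) rose, KRT8 (-0.23), KRT18 (-0.21) and TFF1 (-0.36) fell, and the fibroblast marker COL1A1 rose by 0.56 (limma adjusted p 6.5e-05). Their part in the results was not tested.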

How the data were processed

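RNA from 6 T47D samples (3 GDC-0941, 3 control; 6 ug of total RNA each, per the labels' protocols) was hybridised to 1-colour Affymetrix arrays. The deposited values are log2 signals from RMA, per the submitters' processing notes, with no version; the scale was read from the values (3.00 to 14.81). Background correction, quantile normalization and probe summarisation were thus the authors', and arrays have no read depth, so precision depends on the 3 arrays a group and on the variance prior that limma shares across genes. Of 54675 probe sets 62 controls were left out. Probe sets were named through the platform annotation, with current RefSeq symbols taken by Entrez id. Of the sets tested, 41091 name 1 gene, 1801 several and 11721 none. Among those naming 1 gene, 41037 had an Entrez id found in RefSeq, whether or not the symbol changed. Each gene took the probe set with the highest mean among those naming it alone.

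GDC-0941 minus control was fitted over all genes with limma 3.58.1 in R 4.3.3 (lmFit, eBayes, two-sided, Benjamini-Hochberg, called at an adjusted p under 0.05), tested first on simulated data. Named genes were every called member, all paralogs with their counterparts, the stalk genes, RPS6, RPL5, RPL11, and the 3 highest and lowest others per subunit, plus the 3 most changed called genes per comparison list; RPS26, the probe sets of single genes and the band above 13 were chosen after values were seen. The members and lists were chosen with earlier results of these data known. Alternatives were the replicate number as a block, leaving out each array, normalizing or centring again, other priors and weights, a level filter, other probe set rules and a stricter threshold. Same-numbered arrays did not deviate together (correlations -0.35, 0.19 and -0.02), so numbers were not treated as pairs.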

Additional observations from a re-analysis of the deposited data

How the results depend on the processing

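The calls of RPL39L held in every alternative, with differences of -0.80 to -0.57. RPL26L1, RPL36AL and RPL22L1 kept their calls in all but centring on the hybridisation controls, where their differences were -0.16, -0.16 and -0.07 (adjusted p 0.175, 0.19 and 0.539). With the replicate number as a block, 4 ribosomal protein genes fell, RPL36 being lost (adjusted p 0.0626), and NAP1L1 was lost too (0.0685). The fall of RPS26 held in all alternatives run. When 1 array was left out at a time, 0 ribosomal protein genes rose and 4 to 5 fell, with medians of 0.012 to 0.023. Other TOP mRNAs had 2 to 3 higher and 0 to 1 lower, with medians of 0.036 to 0.109; regulators 1 higher and 5 to 7 lower (-0.138 to -0.068); chaperones 0 higher and 5 to 7 lower (-0.201 to -0.090); biogenesis factors 0 higher and 23 to 27 lower (-0.374 to -0.283); mitochondrial ribosomal proteins 0 to 2 higher and 56 to 60 lower (-0.348 to -0.277); and all genes 1851 to 2444 higher and 2475 to 3192 lower (-0.026 to -0.0051).

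Centring on the hybridisation controls moved the median of all genes to 0.152, with 5688 higher and 895 lower. Ribosomal protein genes then had a median of 0.184, 6 higher and 1 lower. Because this centring shifts every gene alike, their median relative to all genes stayed at 0.03 by construction. Under it other TOP mRNAs had 9 higher and a median of 0.242, regulators 2 higher, 3 lower and 0.062, chaperones 1 higher and 0.015, biogenesis factors 3 higher, 14 lower and -0.153, and mitochondrial ribosomal proteins 5 higher, 26 lower and -0.143. With array weights, ribosomal protein genes had 2 higher and a median of 0.024, other TOP mRNAs 6 higher and 2 lower, chaperones 8 lower, biogenesis factors 2 higher, mitochondrial ribosomal proteins 2 higher, and all genes 4235 higher and 5176 lower. With a trended, robust prior, ribosomal protein genes had 2 higher, other TOP mRNAs 7 higher and 1 lower, and biogenesis factors 1 higher. After quantile normalization again, these were 1 higher (median 0.029), 6 higher and 1 lower, and 2 higher, and mitochondrial ribosomal proteins had 2 higher. Counts over all genes are not given for the trended prior or the repeated quantile normalization.

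With unmarked probe sets first, ribosomal protein genes had 2 higher, 9 lower and a median of 0.0044, regulators 0 higher and other TOP mRNAs 1 lower. This rule put dim sets in place of bright ones for some genes. The mean signal went from 14.48 to 6.50 for RPL7, from 14.58 to 7.44 for RPL37A and from 14.35 to 8.09 for RPS14. Counts over all genes are not given for this rule or for the mean of all probe sets. RPL7 then turned to -0.48, HNRNPA1 to -0.10 and NAP1L1 to -0.28, and RPS27L was called higher, at 0.21 (limma adjusted p 0.0483). With the mean of all probe sets, ribosomal protein genes had 1 higher and a median of -0.0032, and the median of regulators was -0.052. Above the median level, 1 other TOP mRNA was lower, and at an adjusted p under 0.01, 0 mitochondrial ribosomal proteins were higher. With the mean of all probe sets HNRNPA1 (0.11), NAP1L1 (0.11) and LTV1 (-0.10) lost their calls, as did MRPL12 (-0.09) with unmarked sets first; RPS25 passed with a trended, robust prior (adjusted p 0.0061) and with array weights (0.0248). The RPS27L and RPS27 pair gave -0.0052 without GDC-0941 replicate 1 and up to 0.11 without another array. The cause of these moves was not tested.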

Other observations

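Besides the functional genes, 9 symbols of ribosomal protein pseudogenes had a probe set of their own, with mean signals of 5.68 to 10.6. Limma called 0 of them at an adjusted p under 0.05, and at an unadjusted p under 0.05 RPL32P3 was higher and RPS16P5 lower. RPL32P3 averaged 8.34 ± 0.10 in GDC-0941 cells and 8.17 ± 0.07 in control cells, with overlapping groups, and RPS16P5 averaged 7.72 ± 0.08 in GDC-0941 cells and 7.90 ± 0.04 in control cells, with groups apart (SD, n = 3 each).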
